A study of Homo sapiens with 12 samples.

Results

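10 genes that move calcium between the endoplasmic reticulum, the cytosol and the outside of the cell were examined in 4 pancreatic cancer cell lines: STIM1, STIM2, ORAI1, ORAI2, ORAI3, ITPR1, ITPR2, ITPR3, ATP2A2 and ATP2A3. They were chosen by gene symbol, and all 10 were found among the 58302 genes of the expression table. BxPC-3 and CFPAC-1 are lines established from human pancreatic ductal adenocarcinoma, and both are labelled sensitive to gemcitabine (GEM), a nucleoside analog that blocks DNA synthesis. BxPC-3-GR was derived from BxPC-3, and CFPAC-1-GR from CFPAC-1, by prolonged culture in rising amounts of GEM, up to a final concentration that was higher for BxPC-3-GR, and both are labelled resistant. Total RNA of each line was sequenced in 3 libraries, 12 in all, on an Illumina NovaSeq instrument. Each resistant line is 1 derived line, and nothing in the sources says that its 3 libraries came from separate cultures, so the p-values measure the spread between these libraries, which may be technical. The sample labels give the same medium for all lines, whereas the methods of the study give another one for CFPAC-1.

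In most cells, hormones and growth factors make phospholipase C produce inositol trisphosphate (IP3), and IP3 receptors (ITPR1, ITPR2 and ITPR3) then release calcium from the endoplasmic reticulum. STIM1 and STIM2 are membrane proteins of the reticulum that sense the fall in stored calcium and open the ORAI channels of the plasma membrane, through which calcium enters from outside (store-operated entry). The SERCA pumps, whose genes include ATP2A2 and ATP2A3, carry calcium back into the store.

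STIM1 and STIM2 are paralogs that behaved differently in these lines, and RRM1 is the gene that follows STIM1 on chromosome 11, so the bases before their starts are shown first. The 250 bases upstream of a transcript start were taken from RefSeq (GRCh38.p14), which matched 7 of the 10 genes, using for each gene the start nearest to that of its longest coding transcript, which lay 0, 150 and 124 bases away for STIM1, STIM2 and RRM1. All 3 windows lie on the plus strand: STIM1 at chr11:3855453-3855702, STIM2 at chr4:26860591-26860840 and RRM1 at chr11:4094435-4094684. Capitals mark GGGCGG, the core of the GC box bound by Sp factors, on either strand.
STIM1: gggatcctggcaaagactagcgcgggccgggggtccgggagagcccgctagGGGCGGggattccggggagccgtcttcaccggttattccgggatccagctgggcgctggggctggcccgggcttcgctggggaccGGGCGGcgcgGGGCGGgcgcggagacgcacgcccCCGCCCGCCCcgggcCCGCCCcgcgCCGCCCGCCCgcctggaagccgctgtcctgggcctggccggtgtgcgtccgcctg
STIM2: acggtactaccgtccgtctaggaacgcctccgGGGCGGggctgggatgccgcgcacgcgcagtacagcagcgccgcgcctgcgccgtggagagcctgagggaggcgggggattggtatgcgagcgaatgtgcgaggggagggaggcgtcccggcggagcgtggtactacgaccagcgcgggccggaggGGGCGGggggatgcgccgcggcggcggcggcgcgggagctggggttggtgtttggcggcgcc
RRM1: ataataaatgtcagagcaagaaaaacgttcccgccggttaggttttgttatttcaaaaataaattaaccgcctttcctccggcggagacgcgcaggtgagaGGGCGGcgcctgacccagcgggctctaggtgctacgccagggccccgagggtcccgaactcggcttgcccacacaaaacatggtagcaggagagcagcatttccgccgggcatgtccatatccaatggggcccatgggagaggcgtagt
The STIM1 window held 8 matches to GGGCGG, some of which overlapped each other. The STIM2 window held 2 and the RRM1 window held 1. At least 1 match was present in 42.6% of all 35116 windows of this length in the same table. A TATAA match on either strand was found in none of the 3 windows and in 18.9% of all windows, and CCAAT was found once in STIM2, once in RRM1, not in STIM1 and in 32.01% of all windows. GGAAA, the core of the NFAT site, had 2 matches in RRM1, none in the other two windows and at least 1 in 55.6% of all windows. The 3 windows held 35, 38 and 18 CpG dinucleotides for STIM1, STIM2 and RRM1, against a median of 11. These letters describe the windows alone, as binding was not measured.

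Values are FPKM, fragments per kilobase of gene length scaled to the library's mapped fragments, so levels can be compared between genes. A change is a difference of means of log2(FPKM + 1) from limma, written log2FC, with Benjamini-Hochberg adjustment over all genes whose mean in the compared libraries reached 1 FPKM. On this scale the changes of genes near 1 FPKM are understated. A gene rose or fell where the adjusted p was below 0.05, and was called SDE (significantly differentially expressed) where the log2FC was also beyond 1 in size, the criteria of the study. The depth implied by the steps between low values ran from 12600000 to 25200000 fragments per library. All 6 epithelial and ductal markers were above 1 FPKM in every group, whereas PTPRC, which defines leukocytes, was at 0 throughout. The 4 leukocyte markers summed to at most 0.297 FPKM in the BxPC-3 pair, and in CFPAC-1 they lay between 6.24 and 8.54 FPKM, against 0.744 to 1.81 in the resistant line, mostly LYZ. The summed fibroblast markers stayed between 0.664 and 4.11 FPKM. BxPC-3-GR carries the morphology label mesenchymal, yet its summed mesenchymal markers were 37.4 to 39.5 FPKM against 51.9 to 57.5 in BxPC-3, with SNAI2 (23.0 against 41.2) and VIM (0.813 against 6.59) lower, CDH2 (5.40 against 1.99) and FN1 (9.09 against 5.30) higher and ZEB1 near 0 in both. In the CFPAC-1 pair the log2FC of a gene moved with its GC content (Spearman correlation -0.78 across 12030 genes, which are not independent), while in the BxPC-3 pair it did not do so to a similar degree (0.04, 11685 genes). The CFPAC-1 log2FC of the genes examined are therefore given as deposited and after a correction of the log ratios for GC content and length. Levels, shares and ratios of FPKM are uncorrected. Whether the trend arose in the libraries or in the cells was not tested.

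STIM1 (ENSG00000167323, chr11:3854527-4093210, plus strand) had far more RNA in both resistant lines. In BxPC-3-GR the 3 libraries had 49.9, 53.2 and 41.5 FPKM, and in BxPC-3 they had 2.17, 2.22 and 2.09. The level thus went from 2.16 ± 0.0627 to 48.2 ± 6.02 FPKM (SD, n = 3), 22.3 times as high. In CFPAC-1-GR the values were 25.1, 26.3 and 34.1 FPKM, against 2.83, 5.11 and 2.37 in CFPAC-1. Here the means were 28.5 ± 4.87 and 3.44 ± 1.46 FPKM (SD, n = 3), 8.29 times as high, and the CFPAC-1 library 2 stood above the other two parental libraries. The 4 groups did not overlap in any neighboring pair of the order BxPC-3-GR, CFPAC-1-GR, CFPAC-1 and BxPC-3. The log2FC was 3.95 in the BxPC-3 pair (standard error 0.0957, 95% interval 3.72 to 4.19, limma adjusted p = 2.7e-06) and 2.77 in the CFPAC-1 pair (standard error 0.233, 2.21 to 3.33, limma adjusted p = 3.8e-05). Corrected for GC content it was 3.94 and 3.11 (limma adjusted p = 2.3e-06 and 1.1e-04). Exons of 4 other genes overlap those of STIM1 by 43 to 132 bases, a small part of its 7130 exonic bases. STIM1 was picked by the study on these samples, so its direction is no independent evidence. In RNA of a whole culture, more RNA per cell and more cells that express the gene cannot be told apart. With 3 libraries against 3, an exact permutation test of 1 gene cannot go below p = 0.10.

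**Figure D1:**
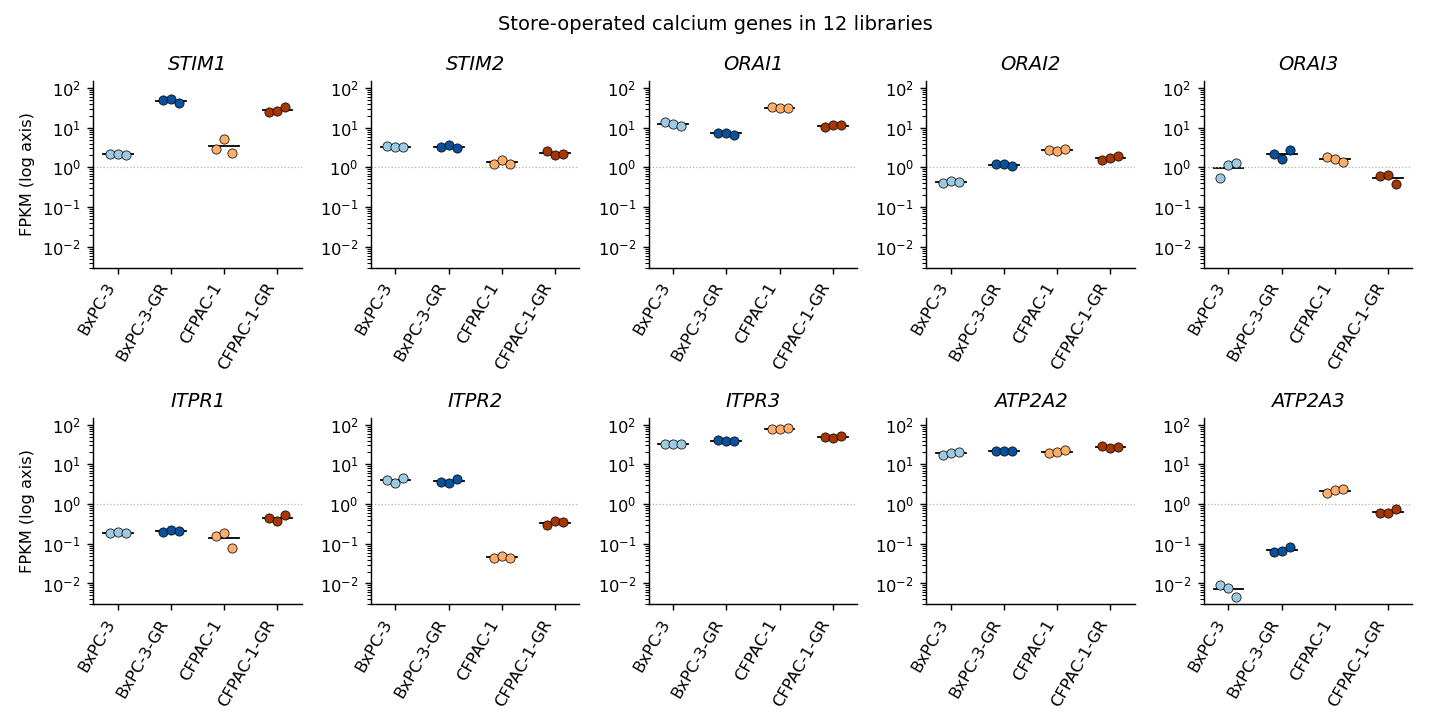
FPKM (log axis) of each of the 10 genes in the 12 libraries, with 1 point per library, a line at the mean of each group and a dotted line at 1 FPKM. STIM1 lay between 41.5 and 53.2 FPKM in BxPC-3-GR and between 2.09 and 2.22 in BxPC-3, while ITPR1 stayed under 1 FPKM in every library.

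The size of the STIM1 change differed between the lines by -1.18 on the log2 scale (95% interval -1.80 to -0.57, limma interaction, adjusted p = 0.0024). Without CFPAC-1 library 2 the difference was -0.93, which is no longer beyond 1. Corrected for GC content it was -0.81 (limma adjusted p = 0.021). Between the parental lines the values did not overlap, but the log2FC of CFPAC-1 against BxPC-3, 0.44, did not pass the test (95% interval -0.07 to 0.96, limma adjusted p = 0.094), and it was -0.011 with the GC correction. It was 0.19 without CFPAC-1 library 2 and 0.61 without CFPAC-1 library 3, where it passed the test (limma adjusted p = 0.031).

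Across the BxPC-3 pair 7 of the 10 genes passed the minimum level, and 4 of these 7 had an adjusted p below 0.05 (limma, 3 higher and 1 lower). Of all 11710 genes tested, 57.7% did. STIM1 was the only one of them called SDE, where 4.14% of all genes were called upward and 3.62% downward. In 5 of the 7 no BxPC-3-GR library lay within the range of the BxPC-3 libraries or the reverse, against 66.1% of all genes. Across the CFPAC-1 pair 8 of the 10 passed the minimum, and all 8 had an adjusted p below 0.05 (3 higher and 5 lower), against 79.6% of the 12051 genes tested. STIM1 was called upward and ORAI1 downward, where 20.5% of all genes were called upward and 11.7% downward. None of the 8 overlapped between the groups, as was the case for 82.1% of all genes. ORAI3 passed the minimum in the BxPC-3 pair only through the resistant libraries, and ORAI3 and ATP2A3 passed it in the CFPAC-1 pair only through the parental ones, so these counts are a description. The median log2FC of the genes that passed was 0.21 in the BxPC-3 pair, against -0.05 over all genes, and -0.58 in the CFPAC-1 pair, against 0.13.

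**Figure D2:**
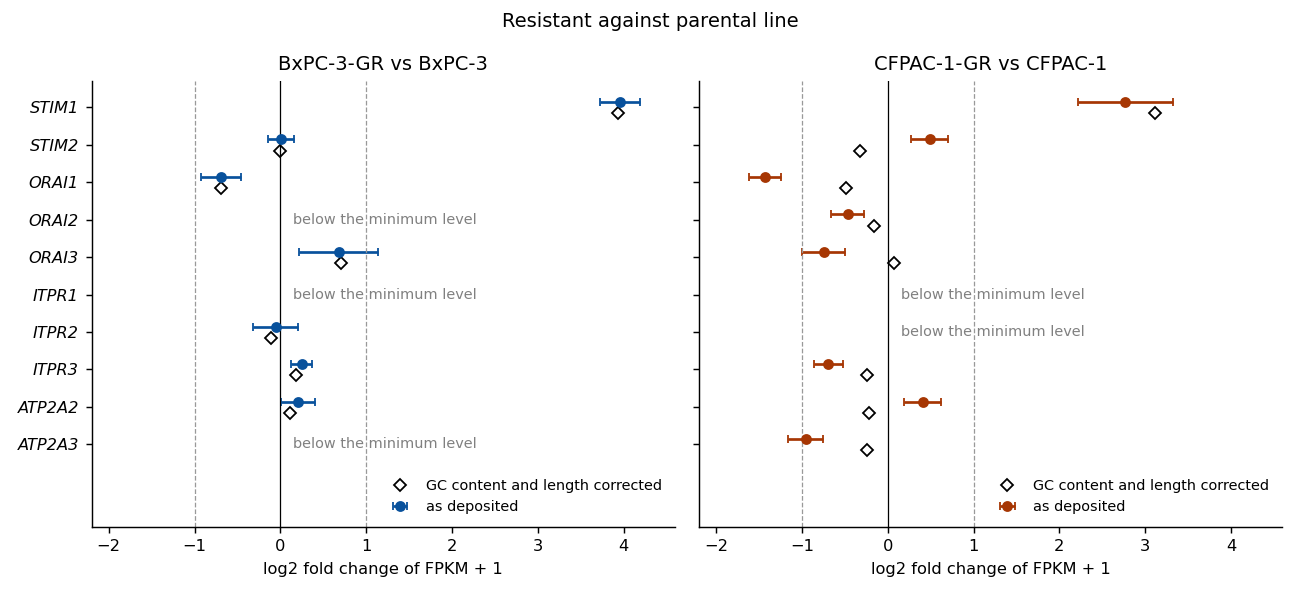
Log2FC of the genes in each resistant line against its parental line, with filled circles and 95% intervals for the values as deposited, and open diamonds for the values corrected for GC content and length. Dashed lines mark -1 and 1. STIM1 is far to the right in both panels (3.95 and 2.77), and in the CFPAC-1 pair the diamonds of the other genes lie closer to 0 than their circles, as for ORAI1 (-1.44 and -0.49).

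STIM2 (ENSG00000109689, chr4:26857678-27025381, plus strand), the paralog that responds to smaller losses of stored calcium, did not follow STIM1. It had 3.21, 3.58 and 3.04 FPKM in BxPC-3-GR and 3.37, 3.22 and 3.19 in BxPC-3, and these values overlapped. The log2FC was 0.0054 (95% interval -0.15 to 0.16, limma adjusted p = 0.95). CFPAC-1-GR had 2.53, 2.10 and 2.19 FPKM and CFPAC-1 had 1.22, 1.56 and 1.23, without overlap. STIM2 rose there by a log2FC of 0.49 (standard error 0.0895, limma adjusted p = 0.0019), but the value turned to -0.32 after the GC correction (limma adjusted p = 0.0093). A minimum of 0.1 FPKM and 0.1 in place of the 1 added to FPKM were also tried, chosen after the values were seen. With these and the correction STIM2 was at -0.27 and did not pass (limma adjusted p = 0.12). STIM1 therefore made up 39.9% ± 0.814 of the summed STIM1 and STIM2 FPKM in BxPC-3 and 93.6% ± 0.393 in BxPC-3-GR (SD, n = 3). The corresponding shares were 70.8% ± 5.38 in CFPAC-1 and 92.5% ± 1.55 in CFPAC-1-GR. The shares of the parental lines did not overlap, whereas those of the resistant lines did. These shares are uncorrected. Under the GC correction neither gene passed the test between the parental lines (-0.011 and -0.083, limma adjusted p = 0.96 and 0.29). With the settings of 0.1 added, STIM2 did (-0.41, limma adjusted p = 0.017).

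Several genes around STIM1 were higher as well. Of the genes that start within 1 Mb of the STIM1 start, 12 were tested in the BxPC-3 pair, and 7 were called upward and 0 downward. Of all genes there, 4.14% were called upward and 3.62% downward. The neighbors had a median log2FC of 1.68, against -0.05 over all genes. Around STIM1 in the CFPAC-1 pair, 14 were tested, 7 were called upward and 0 downward, and the median was 1.07. All genes there had 20.5% upward, 11.7% downward and a median of 0.13. AC090587.2 and OR51E1 in the BxPC-3 pair, AC015689.1 in the CFPAC-1 pair and PGAP2 in both reached the minimum only through the resistant libraries. These counts and medians are therefore a description. As deposited, 4 genes, RRM1, TRIM21, TRIM68 and AC090587.2, were called upward in both pairs, and with the GC correction PGAP2 and RHOG were as well. RRM1 and TRIM21 were picked by the study on these samples, as STIM1 was, and it listed TRIM68 among the top genes of BxPC-3-GR. The direction of these genes is therefore no independent evidence. AC090587.2 shares 43 exonic bases with STIM1, whose strand it is on, so its value is uncertain. Without it, 6 of 11 and 6 of 13 genes were called. With the GC correction 7 and 8 genes were called upward, where 897 of 11685 and 1042 of 12030 genes were called in either direction.

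RRM1 (ENSG00000167325, chr11:4094707-4138876, plus strand) encodes the large subunit of ribonucleotide reductase, an enzyme that GEM metabolites inhibit, and begins 1497 bases past the end of STIM1. It had 413 ± 14.9 FPKM in BxPC-3-GR against 29.1 ± 1.31 in BxPC-3, and 306 ± 4.91 in CFPAC-1-GR against 8.07 ± 0.809 in CFPAC-1 (SD, n = 3). The log2FC was 3.78 and 5.08 (limma adjusted p = 1e-06 and 7.7e-07), and 3.81 and 4.35 with the GC correction. All 5 genes tested on the downstream side of the STIM1 start were called in each pair, with log2FC from 1.97 to 4.24 in the BxPC-3 pair and from 1.26 to 5.08 in the CFPAC-1 pair. AC090587.2 and OR51E1 in the first pair and AC015689.1 in the second reached the minimum only through the resistant libraries, so the filter itself favored their rise. All of these were also called after the GC correction, from 2.02 to 4.31 and from 1.17 to 4.35. On the upstream side 2 of 7 and 2 of 9 were called, PGAP2 and RHOG in the BxPC-3 pair and NAP1L4 and NUP98 in the CFPAC-1 pair. Corrected upstream calls of the CFPAC-1 pair were NAP1L4, PGAP2 and RHOG. PGAP2, which also reached the minimum only through the resistant libraries, had 1.38 and 0.73 as deposited and 1.41 and 1.24 corrected. RHOG, a gene that starts 13.5 kb before STIM1 on the opposite strand, had 115 ± 5.68 FPKM in BxPC-3-GR against 6.06 ± 0.900 in BxPC-3, a log2FC of 4.05 (limma adjusted p = 2.7e-06). In CFPAC-1-GR it had 23.4 ± 0.720 against 12.2 ± 1.16, a log2FC of 0.89, and 1.81 after the GC correction. NUP98, a nuclear pore gene that starts 56.7 kb upstream, fell in BxPC-3-GR (-0.51, limma adjusted p = 5.2e-04) and rose in CFPAC-1-GR (1.37, limma adjusted p = 8.2e-06, and 0.94 with the GC correction). The 4 tested genes farther upstream, from 688 to 925 kb away, had log2FC between -0.31 and 0.42 in the BxPC-3 pair. In the CFPAC-1 pair the same genes ran from -0.89 (PHLDA2, 0.17 corrected) to 1.46 (NAP1L4, 1.38 corrected).

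**Figure D3:**
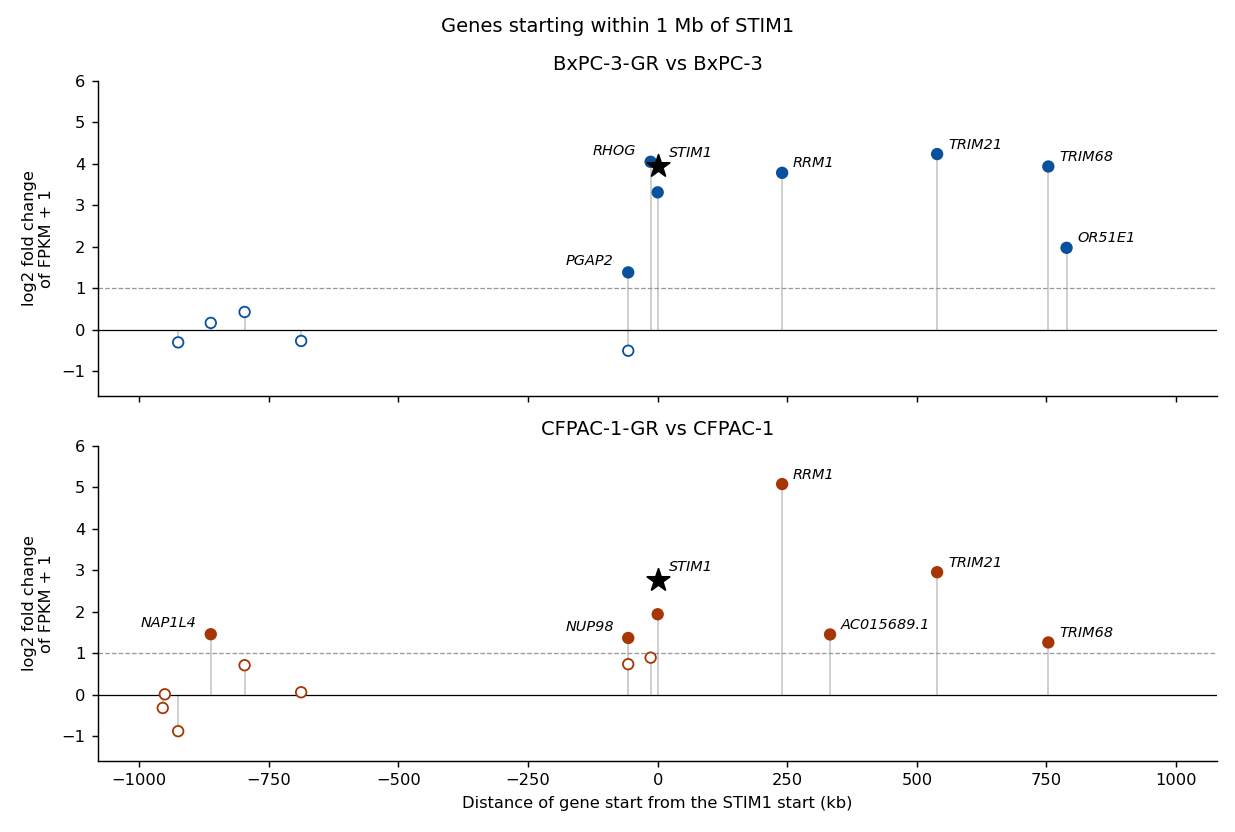
Log2FC of each tested gene that starts within 1 Mb of STIM1, plotted against the distance of its start from the STIM1 start in kb. Filled points were called SDE, open points were not, the star is STIM1 and the dashed line marks 1. On the right of STIM1 every tested gene was called in both pairs, and on the left only 2 genes per pair. AC090587.2 and OR51E1 in the BxPC-3 pair, AC015689.1 in the CFPAC-1 pair and PGAP2 in both reached the minimum only through the resistant libraries.

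None of the other 9 genes stood in such a neighborhood in the BxPC-3 pair, where between 0 and 3 neighbors were called for each. Of all genes, 4.14% were called upward and 3.62% downward in that pair. For the CFPAC-1 pair, 7 of 11 tested neighbors of ITPR2 were called upward, 12 of 56 around ORAI3 downward, and 7 of 20 around ITPR3 downward with 1 upward. Of all genes, 20.5% were called upward and 11.7% downward there. With the GC correction the neighbor counts were 0 of 11 for ITPR2, 3 of 56 downward for ORAI3, and 2 of 20 downward for ITPR3. The correction left 1042 of all 12030 genes called.

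The pattern of STIM1 over the 12 libraries was compared with that of 12210 genes by the root mean square difference of centered log2(FPKM + 1). TRIM21, an E3 ubiquitin ligase gene of the same region, was closest (0.322), followed by MUC16 on chromosome 19 (0.425), AC090587.2 (0.471), TRIM22 on chromosome 11 (0.619) and CLIC4 on chromosome 1 (0.643). The closest genes to the others were DIS3L for STIM2 (0.0814), ALDH16A1 for ORAI1 (0.0728), AGBL5 for ORAI2 (0.0533), KIAA1522 for ORAI3 (0.175), GALNT12 for ITPR2 (0.0949), PTPN18 for ITPR3 (0.0767) and CDKAL1 for ATP2A2 (0.0701). ITPR1 and ATP2A3 were below the minimum over all libraries.

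Among the plasma membrane channels, the most abundant one went the opposite way to STIM1. ORAI1 (ENSG00000276045, chr12:121626550-121642677, plus strand), the pore-forming subunit of the main store-operated channel, was lower in both resistant lines. BxPC-3-GR had 7.55, 7.50 and 6.68 FPKM and BxPC-3 had 13.99, 12.19 and 10.97. ORAI1 fell by 0.70 on the log2 scale (standard error 0.0960, 95% interval of the change -0.93 to -0.46, limma adjusted p = 0.0013). In CFPAC-1-GR it had 10.13, 11.84 and 11.79 FPKM, and in CFPAC-1 32.56, 31.69 and 31.97. The log2FC was -1.44 (standard error 0.0783, -1.62 to -1.25, limma adjusted p = 8.1e-06). Corrected for GC content, ORAI1 still fell in both pairs, by 0.69 and 0.49 (limma adjusted p = 4.9e-04 and 5.9e-04), but was no longer called in CFPAC-1-GR. Its longest transcript has a GC content of 61.7%. The 2 responses differed by -0.74 (limma interaction, adjusted p = 2.5e-04), which turned to 0.23 after the GC correction (limma adjusted p = 0.053). The ratio of STIM1 to ORAI1 FPKM went from 0.176 ± 0.0185 to 6.64 ± 0.443 in the BxPC-3 pair and from 0.107 ± 0.0469 to 2.53 ± 0.339 in the CFPAC-1 pair (SD, n = 3), so the order of the 2 levels was turned in both.

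ORAI2 (ENSG00000160991, chr7:102433106-102456821, plus strand) and ORAI3 (ENSG00000175938, chr16:30949066-30956461, plus strand) are less abundant family members. ORAI2 had 1.19, 1.21 and 1.10 FPKM in BxPC-3-GR and 0.4003, 0.4631 and 0.4352 in BxPC-3, a ratio of 2.70 without overlap. Its mean over the pair was below the minimum. With a minimum of 0.1 FPKM and a pseudocount of 0.1, chosen after the values were seen, the log2FC was 1.25 (limma adjusted p = 3.1e-04), and 1.11 with the GC correction added (limma adjusted p = 3.7e-04). In CFPAC-1-GR the direction was the opposite, with 1.53, 1.75 and 1.93 FPKM against 2.81, 2.58 and 2.92 in CFPAC-1. ORAI2 fell there by 0.46 (limma adjusted p = 0.0014), and its value of -0.16 after the GC correction did not pass the test (limma adjusted p = 0.10), whereas with the pseudocount and minimum of 0.1 added it was -0.54 (limma adjusted p = 0.012). It shares 584 exonic bases with ALKBH4 on the opposite strand, and since strand use in counting is not given in the sources used here, reads of the 2 genes cannot be told apart there.

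ORAI3 had 2.21, 1.61 and 2.67 FPKM in BxPC-3-GR and 0.531, 1.14 and 1.28 in BxPC-3, without overlap. It rose by a log2FC of 0.68 (95% interval 0.22 to 1.14, limma adjusted p = 0.022), and with a pseudocount of 0.1 by 1.12 (limma adjusted p = 0.034). The limma adjusted p missed the threshold without BxPC-3-GR library 1 (0.061) or 3 (0.069), with no filter (0.056), with a pseudocount and minimum of 0.1 (0.054) and with the GC correction added to these (0.075). In the CFPAC-1 pair it had 0.617, 0.651 and 0.371 FPKM in the resistant and 1.82, 1.60 and 1.35 in the parental libraries. The log2FC of -0.74 (limma adjusted p = 4.9e-04) became 0.07 after the GC correction (limma adjusted p = 0.59), but was -0.73 (limma adjusted p = 0.039) when a pseudocount and minimum of 0.1 were used with the correction. These levels rest on 15.2 to 93.4 implied fragments per CFPAC-1 or CFPAC-1-GR library, and 1397 exonic bases are shared with AC135048.1 on the same strand, so the value is uncertain. ORAI1 kept the largest share of the family in every group, at 89.5% ± 3.78 in BxPC-3, 68.5% ± 4.37 in BxPC-3-GR, 88.0% ± 0.426 in CFPAC-1 and 83.1% ± 0.580 in CFPAC-1-GR (SD, n = 3). The ORAI3 share was 20.5% ± 4.98 in BxPC-3-GR against 7.30% ± 3.38 in BxPC-3, while in the CFPAC-1 pair it was 4.08% ± 1.27 against 4.36% ± 0.593. ORAI2 took 11.05% ± 0.629 against 3.16% ± 0.413 in the BxPC-3 pair and 12.8% ± 0.755 against 7.61% ± 0.426 in the CFPAC-1 pair.

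**Figure D4:**
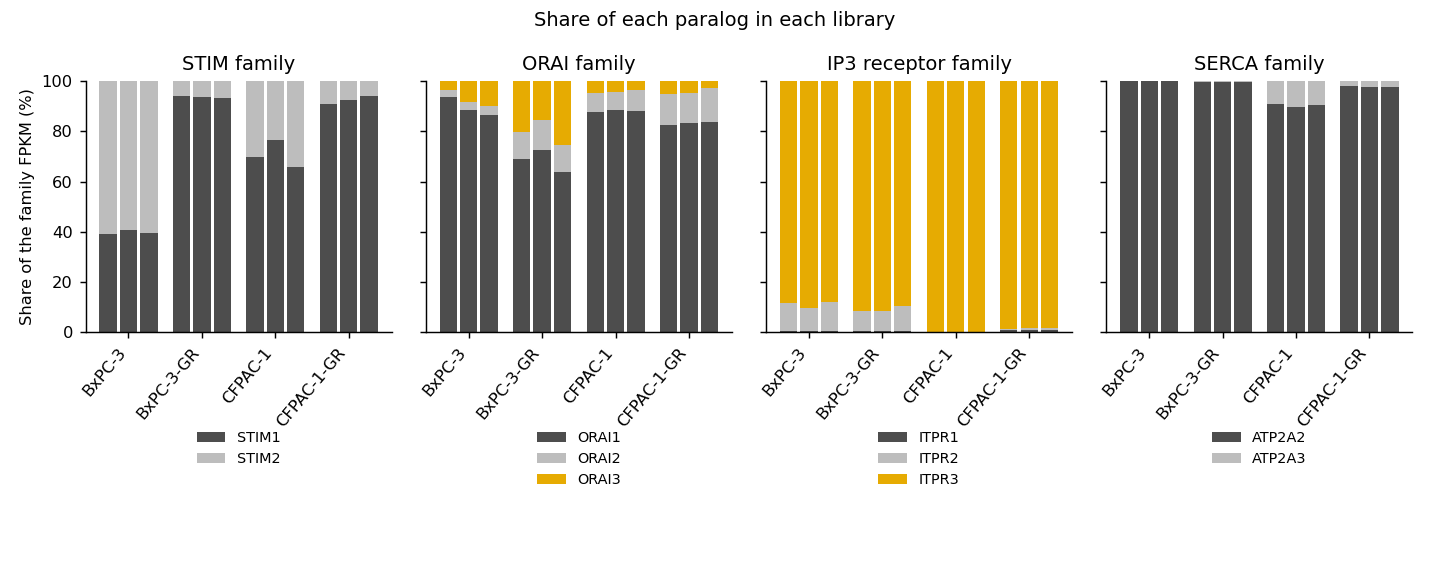
Share of each paralog in the summed FPKM of its family (%), with 1 bar per library and 3 bars per line. The SERCA family is here ATP2A2 and ATP2A3 alone. STIM1 made up 39.9% in BxPC-3 and over 90% in both resistant lines, ORAI1 and ITPR3 had the largest share of their families in all 12 libraries, and so did ATP2A2.

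Among the IP3 receptors, ITPR3 (ENSG00000096433, chr6:33620365-33696574, plus strand) carried most of the RNA, with 88.8% to 99.8% of the summed FPKM as group means. It had 40.6, 39.0 and 38.1 FPKM in BxPC-3-GR and 32.6, 32.6 and 33.5 in BxPC-3, and rose by a log2FC of 0.25 (standard error 0.0490, limma adjusted p = 0.0059). CFPAC-1-GR had 48.8, 46.5 and 52.2 FPKM against 77.1, 79.7 and 83.1 in CFPAC-1. There it fell by 0.69 (standard error 0.0722, limma adjusted p = 1e-04). After the GC correction the log2FC was 0.18 and -0.25 (limma adjusted p = 0.019 and 0.012), so the directions were opposite in the 2 pairs as deposited and corrected. With a pseudocount and minimum of 0.1 added to the correction, the values were 0.10 and -0.41 (limma adjusted p = 0.26 and 0.01). The rise in BxPC-3-GR thus no longer passed. The responses differed by -0.94 as deposited (limma interaction, adjusted p = 1.1e-06) and by -0.40 corrected (limma adjusted p = 5.3e-04). ITPR3 shares 1025 exonic bases with UQCC2 on the opposite strand.

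ITPR2 (ENSG00000123104, chr12:26336515-26833198, minus strand) set the parental lines apart. BxPC-3 had 4.06, 3.34 and 4.46 FPKM and BxPC-3-GR had 3.65, 3.39 and 4.24, with a log2FC of -0.06 (95% interval -0.32 to 0.21, limma adjusted p = 0.68). CFPAC-1 had only 0.0435, 0.0498 and 0.0431 FPKM, which is 7.12 to 10.7 implied fragments per library. The parental difference was -2.24 (limma adjusted p = 1.1e-06) and -1.07 after the GC correction (limma adjusted p = 4.7e-05). In CFPAC-1-GR the level was 0.304, 0.371 and 0.354 FPKM, 7.55 times the CFPAC-1 mean and below the minimum for the test. With the minimum and pseudocount of 0.1 its log2FC was 1.60 (limma adjusted p = 1e-04), and with the GC correction added 0.12 (limma adjusted p = 0.48).

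ITPR1 (ENSG00000150995, chr3:4493348-4847840, plus strand) was low in all lines, at 0.207 ± 0.00906 FPKM in BxPC-3-GR, 0.191 ± 0.00814 in BxPC-3, 0.455 ± 0.0773 in CFPAC-1-GR and 0.141 ± 0.0573 in CFPAC-1 (SD, n = 3). It passed the minimum in none of the comparisons. With the minimum and pseudocount of 0.1 the log2FC was 0.08 in the BxPC-3 pair (limma adjusted p = 0.37) and 1.22 in the CFPAC-1 pair (limma adjusted p = 0.0041), the latter 0.07 with the GC correction added (limma adjusted p = 0.81).

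The SERCA pump gene ATP2A2 (ENSG00000174437, chr12:110280756-110351093, plus strand), which most tissues express, changed little. It had 22.1, 22.0 and 21.7 FPKM in BxPC-3-GR and 16.8, 19.0 and 20.9 in BxPC-3, which did not overlap. The log2FC of 0.21 did not pass the adjusted test (95% interval 0.01 to 0.41, limma adjusted p = 0.068), but passed it without BxPC-3 library 3 (0.28, limma adjusted p = 0.019) and with median-of-ratios scaling (0.26, limma adjusted p = 0.034). CFPAC-1-GR had 29.50, 25.37 and 27.95 FPKM and CFPAC-1 had 19.0, 20.3 and 22.6, again without overlap. ATP2A2 rose there by 0.41 (standard error 0.0920, limma adjusted p = 0.0052), and the value turned to -0.22 after the GC correction (limma adjusted p = 0.039). ATP2A3 (ENSG00000074370, chr17:3923870-3964464, minus strand), the pump gene known from blood cells and some epithelia, was seen mainly in the CFPAC-1 pair. CFPAC-1 had 1.88, 2.31 and 2.36 FPKM and CFPAC-1-GR had 0.588, 0.591 and 0.736, a fall of 0.96 on the log2 scale (95% interval of the change -1.16 to -0.75, limma adjusted p = 5.1e-05). With the GC correction it fell by 0.24 (limma adjusted p = 0.023), and its log2FC was -0.996 with a pseudocount and minimum of 0.1 added (limma adjusted p = 0.0018), and the GC content of its longest transcript was the highest of the 10 genes at 63.4%. Without CFPAC-1 library 1 the uncorrected value was -1.03, which is beyond the limit for a call. In BxPC-3 the level of ATP2A3 was 0.00452 to 0.00889 FPKM, about 1 implied fragment per library (0.533 to 1.07), so no fold is given. BxPC-3-GR had 0.0614 to 0.0840 FPKM, or 9.59 to 14.4 implied fragments. ATP2A2 supplied 99.7% ± 0.0592 and 100.0% of the summed ATP2A2 and ATP2A3 FPKM in BxPC-3-GR and BxPC-3. The shares were 97.7% ± 0.306 and 90.4% ± 0.623 in CFPAC-1-GR and CFPAC-1 (SD, n = 3). ATP2A1, another pump gene, was below the minimum in both pairs and is not in this sum.

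**Figure D5:**
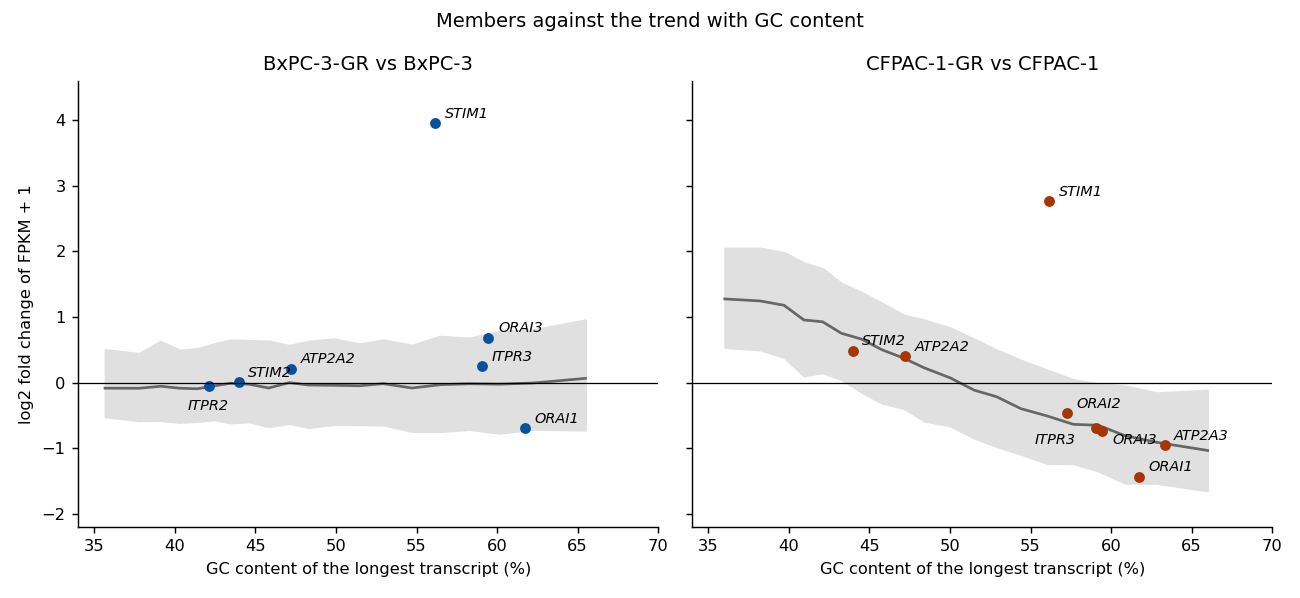
Log2FC of the tested genes of the set (points) against the GC content of their longest transcript (%), over the median (line) and the 10th to 90th percentile (gray) of all tested genes in 20 bins of GC content. In the CFPAC-1 pair the line falls with GC content, and in the BxPC-3 pair it is nearly flat. The CFPAC-1 points other than STIM1 lie near the line or, for ORAI1, below it within the gray band. STIM1 lies far above the gray band in both panels.

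Of the 9 tested between the parental lines, 6 had an adjusted p below 0.05 (limma), against 84.2% of the 11842 genes tested. Upward calls in CFPAC-1 were ORAI1 (1.31), ORAI2 (1.40), ITPR3 (1.26) and ATP2A3 (1.66), where 19.8% of all genes were called upward, and ITPR2 was the only downward call, where 24.7% of all genes were. ORAI2, ORAI3, ITPR2 and ATP2A3 passed the minimum through 1 of the lines only. Under the GC correction ITPR2 alone was still called, with ORAI2 at 0.99, ATP2A3 at 0.87, ITPR3 at 0.73 and ORAI1 at 0.22. ATP2A2 went from 0.12 to 0.63 (limma adjusted p = 0.29 and 4.6e-04) and ORAI3 from 0.40 to -0.57 (limma adjusted p = 0.053 and 0.024). With a pseudocount and minimum of 0.1 added, ATP2A2 was 0.66 (limma adjusted p = 0.0022), and ORAI3 did not pass (-0.47, limma adjusted p = 0.27). STIM2 was lower in CFPAC-1 by -0.87 (limma adjusted p = 3.5e-05), and by -0.08 after the correction (limma adjusted p = 0.29).

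The responses to selection differed between the lines in 7 of the 8 genes that could be tested over all 12 libraries (limma interaction, adjusted p below 0.05), against 76.6% of 12210 genes. STIM1, ORAI2 and ORAI3 were called, each with a lower response in CFPAC-1-GR, where 14.4% of all genes were called in this direction and 23.6% in the other. ORAI2, ORAI3 and ITPR2 passed the minimum through some of the groups only, as ORAI2 had a mean of 0.433 FPKM in BxPC-3. Under the GC correction none of the 8 was beyond 1. STIM1, ORAI2 and ITPR3 still passed the test with the same sign, STIM2 (-0.30) and ITPR2 (-0.66) passed it with the opposite sign, ORAI1 (limma adjusted p = 0.053) and ORAI3 (limma adjusted p = 0.051) did not pass, and ATP2A2 passed at -0.32 (limma adjusted p = 0.016). With a pseudocount and minimum of 0.1 added to the correction, STIM1 (-1.08), ORAI2 (-1.66) and ORAI3 (-1.77) were called again. The median difference over all genes was 0.22, so values near it do not stand apart from the rest. ATP2A2 differed by 0.20 (95% interval -0.08 to 0.47, limma adjusted p = 0.17), and this sign changed with median-of-ratios scaling and with the GC correction.

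Other genes of the calcium store were read from a list of 77 genes, grouped by role. In the BxPC-3 pair 41 were tested, 14 rose and 13 fell (limma, adjusted p below 0.05), and 0 were called SDE, where 57.7% of all genes passed the test, 4.14% were called upward and 3.62% downward, with 28 of the 41 at an unadjusted p under 0.05. The median log2FC was -0.04, against -0.05 over all genes. Of the 8 tested genes of IP3 production and removal 5 rose and 3 fell, and of 5 genes of mitochondrial uptake 4 rose and 1 fell. Of all 11710 genes, 3070 rose and 3685 fell. The regulators of STIM and ORAI held 3 tested genes, of which ESYT1, a tether between the reticulum and the plasma membrane, fell by 0.39 (limma adjusted p = 0.0013). SARAF, which slows store-operated entry, had 0.14 (limma adjusted p = 0.052) and TMEM110 had 0.0050 (limma adjusted p = 0.99).

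Across the CFPAC-1 pair 47 of the 77 were tested, 23 rose and 16 fell, and 10 were called upward and 4 downward, near the shares of all genes (79.6% passing the test, 20.5% upward and 11.7% downward). Median-of-ratios scaling, which moves the median of all genes from 0.13 to 0.00084, gave 5 upward and 7 downward, with 3900 of all 12051 genes called. The GC correction left 0 of the list called, against 1042 of all 12030 genes. As deposited, the largest upward calls were SSFA2, an IP3 receptor partner (1.90), ATP2B1, a plasma membrane calcium pump (1.78), and PPP3CA, a catalytic subunit of calcineurin (1.28), with limma adjusted p of 9.1e-06, 1.6e-05 and 6.9e-06. The values of ATP2B1 with pseudocounts of 1 and 0.1 (1.78 and 2.57) imply a CFPAC-1 level below 1 FPKM. ATP2B1 thus reached the minimum only through the resistant libraries, so the filter itself favored its rise. The largest downward calls were ITPKA, a kinase that removes IP3 (-1.63), PLCD3, a phospholipase C (-1.42), and RCN3, a calcium-binding protein of the secretory pathway (-1.33), with limma adjusted p of 6.3e-06, 1.4e-04 and 1.6e-05. Corrected values of these 6 were 0.61, 0.40, 0.40, -0.57, -0.81 and -0.33. Of 12 tested genes of calmodulin, calcineurin and NFAT, 9 rose and 2 fell, and of 10 of IP3 production and removal, 1 rose and 8 fell. Of all 12051 genes, 5380 rose and 4210 fell. With the GC correction, 10 of the 47 rose and 12 fell. Among them were 3 up and 1 down of the calmodulin, calcineurin and NFAT group, and 0 up and 3 down of the IP3 group. The numbers of all genes that rose or fell under the correction are not reported here. SARAF rose by 0.88 (limma adjusted p = 5.9e-04, and 0.49 with the GC correction), and ESYT1 fell by 0.66 (limma adjusted p = 1.3e-04, and by 0.32 with the GC correction). TMEM110 had -0.44 (limma adjusted p = 0.22, and -0.28 corrected), and CRACR2B, a calcium-binding regulator of ORAI1, had 0.0012 (limma adjusted p = 0.99), and 0.92 corrected (limma adjusted p = 1.7e-04).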

How the data were processed

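3 libraries per line were sequenced from the 4 lines. The authors deposited FPKM values per gene, which the methods place on GRCh38 release 91. The submitters' notes name Trimmomatic 0.27, FastQC 0.10.1, TopHat2 2.0.8 and the builds hg19 and GRCh38, and the methods name DESeq2. The counting program, RNA selection and use of strand are not given in the sources used here. Whole reads could not be recovered (56.3% to 67.9% of low values were within 0.02 of whole fragments). GENCODE 29 held 58039 of the genes and gave positions, joined exon length and the GC content of the longest transcript.

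Changes were fitted with limma 3.58.1 (R 4.3.3) on log2(FPKM + 1), over genes whose mean reached 1 FPKM, with only the groups compared, and the difference of response as an interaction over 12 libraries. GC correction used splines on GC content and log length (5 degrees of freedom each). Depth, which sets the error of low values, is known only as implied. Alternatives were other pseudocounts, minimums, scalings and fits, the replicate block, and each library left out. The procedure was also run on simulated data, with independent noise and changes placed without regard to GC content. That run says nothing on a real response that follows GC content. Named genes were the 10, RRM1, the 3 largest calls of the list per direction and the closest patterns. RHOG, NUP98 and the other named neighbors of STIM1, and the 4 STIM and ORAI regulators, were named after their values were seen. Genes and lists were chosen with earlier results of these data known.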

Additional observations from a re-analysis of the deposited data

Results flagged for a closer look

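4 of the genes with a different response in the lines either were called or moved in opposite directions. The difference was -1.18 for STIM1, -1.06 for ORAI2, -1.43 for ORAI3 and -0.94 for ITPR3 on the log2 scale (CFPAC-1 pair minus BxPC-3 pair, limma interaction, adjusted p = 0.0024, 1e-06, 1.8e-04 and 1.1e-06). STIM1 was higher in all 6 resistant libraries than in any parental library of its line. ITPR3 was higher in the 3 BxPC-3-GR libraries and lower in the 3 CFPAC-1-GR libraries than in their parental libraries, without overlap. With the GC correction and a pseudocount and minimum of 0.1, its rise in BxPC-3-GR did not pass (0.10, limma adjusted p = 0.26). After the GC correction the 4 differences were -0.81, -0.67, -0.62 and -0.40 (limma adjusted p = 0.021, 4.4e-05, 0.051 and 5.3e-04), so that of ORAI3 no longer passed. ORAI2 and ORAI3 reached the minimum through some of the groups only.

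ATP2A3 was above BxPC-3 in each BxPC-3-GR library, at a mean of 0.0699 FPKM, and below CFPAC-1 in each CFPAC-1-GR library. Its difference was below the minimum of the interaction fit and was not tested, as BxPC-3 held about 1 implied fragment per library (0.533 to 1.07).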

How the results depend on the processing

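STIM1 stayed called in both pairs under every alternative run, from 3.88 to 4.41 in the BxPC-3 pair and from 2.60 to 3.26 in the CFPAC-1 pair. The number of the 10 genes called was 1, 2, 5 and 3 in the BxPC-3, CFPAC-1 and parental comparisons and the difference of response. With a pseudocount of 0.1 it was 2 in the BxPC-3 pair and 4 in the CFPAC-1 pair. Of all genes, 1429 of 11710 and 5365 of 12051 were called at this setting. With the GC correction, alone or with the replicate block, the number of the 10 was 1 in the CFPAC-1 pair, 1 between the parental lines and 0 for the difference. Median-of-ratios scaling gave 5 for the difference. Over all genes the correction alone called 1042 of 12030, 3143 of 11821 and 2243 of 12184, and the scaling 4594 of 12210. With a pseudocount and minimum of 0.1, chosen after the data were seen, the number was 2, 6 and 6 in the BxPC-3 and CFPAC-1 pairs and the difference. Over all genes these settings called 2665 of 19698, 8320 of 21003 and 9150 of 21194. With the GC correction added, the number of the 10 was 2 and 1 in the pairs, 3 between the parental lines and 4 for the difference. These 4 were STIM1, ORAI2, ORAI3 and ATP2A3, whose BxPC-3 level was near 1 fragment. Over all genes the calls were then 2608 of 19620, 3777 of 20920, 7915 of 20332 and 5705 of 21110. The list of 77 gave 0 and 14 calls in the 2 pairs. It gave 3 and 23 with a pseudocount of 0.1, 5 and 28 with the minimum of 0.1 added, and 4 and 3 with the GC correction also added. Over all genes the calls at these settings were 1429 and 5365, 2665 and 8320, and 2608 and 3777. With the GC correction, alone or with the replicate block, the list gave 0 in the CFPAC-1 pair, where 1042 and 1046 of all 12030 genes were called. With each library left out, the number called ranged from 1 to 1, 2 to 3, 4 to 5 and 2 to 3 for the 10 genes, in the order above, and from 0 to 1 and 13 to 17 for the list, where the value of 1 came without BxPC-3-GR library 1. Leaving out a library gave no value for ORAI3 in the CFPAC-1 pair and for ATP2A3 between the parental lines in some cases, as the mean then fell below the minimum.

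Signs changed mainly with the GC correction (the same value with and without the block). In the CFPAC-1 pair STIM2 went to -0.32, ORAI3 to 0.067 and ATP2A2 to -0.22, between the parental lines STIM1 went to -0.011 and ORAI3 to -0.57, and for the difference STIM2 went to -0.30, ORAI1 to 0.23, ITPR2 to -0.66 and ATP2A2 to -0.32. STIM2 in the BxPC-3 pair, near 0 throughout, went to -0.0079. With pseudocount and minimum of 0.1 as well, STIM2 was -0.016 in the BxPC-3 pair and -0.27 in the CFPAC-1 pair, ATP2A2 -0.44 in the CFPAC-1 pair, STIM1 -0.037 and ORAI3 -0.47 between the parental lines, and for the difference STIM2 -0.24, ORAI1 0.16 and ATP2A2 -0.53. Median-of-ratios scaling took the ATP2A2 difference to -0.10. With a library left out, STIM2 ranged from -0.045 to 0.046 and ITPR2 from -0.15 to 0.018 in the BxPC-3 pair. The cause of these changes was not tested.

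Replicate numbers were shared between groups, but same-numbered libraries correlated between -0.05 and 0.10 in the BxPC-3 pair and between -0.14 and 0.00014 in the CFPAC-1 pair. No shared effect was seen, which cannot tell whether same-numbered libraries were prepared together. The replicate block alone gave 908 and 3883 calls over all genes, against 909 and 3880 without it, and changed no count of the 10 genes or of the list. Over all genes the pseudocount of 0.1 gave 1429 calls in the BxPC-3 pair, with the minimum of 0.1 2665 and 8320 in the 2 pairs, and the GC correction gave 1042 in the CFPAC-1 pair, 3143 against 5274 between the parental lines and 2243 against 4643 for the difference. Depth limits ATP2A3, ITPR1, ITPR2 and ORAI3 most.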
